A study of Bos taurus with 6 samples.

Results

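The CD-named genes of bovine white blood cells are those whose probe set carried a single gene symbol beginning with CD and a digit in the annotation of the array. CD stands for cluster of differentiation, the system that numbers surface molecules of leukocytes by the antibodies that recognise them. The rule found 60 probe sets for 46 genes, among 6337 genes with a single symbol and 12763 probe sets in all. Where a gene had several probe sets, the one with the highest mean over all arrays was used, and 12 of the 46 genes had more than 1. The label of leukocyte surface antigens did not hold for every member. CD2AP and CD2BP2 are intracellular proteins named after their binding to CD2, and they are described apart. CD320, the receptor that takes up vitamin B12 bound to transcobalamin, is a surface protein but marks no blood lineage, and CD63 and CD68 lie mainly in lysosomes or granules inside the cell.

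The samples were white blood cells of Sanhe heifers, a Chinese cattle breed, taken after or before severe cold. The group after cold had 3 arrays, numbered 1, 2 and 3, from animals put outdoors at -32 °C for 3 hours and then housed at 5 °C for 15 hours. The group before cold had 3 arrays, numbered 4, 5 and 6, and all animals shared a cowshed and a mixed ration. By the study's design, 3 animals drawn from 30 heifers gave all 6 samples, but the labels leave unstated which samples come from the same animal and when the later blood was drawn. The labels give no age beyond the stage of heifer.

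T cells recognise antigen with a receptor whose signal runs through the CD3 chains, while the co-receptors CD4 and CD8 bind the MHC molecule that holds the antigen. A second signal comes from pairs such as CD28 with CD80 or CD86, and CD40LG on the T cell with CD40 on the B cell or dendritic cell. B cells signal through CD79A, monocytes sense bacterial lipopolysaccharide with CD14, and tetraspanins such as CD9, CD53 and CD81 organise other proteins in the membrane of many cell types.

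All values are log2 intensities of 1 probe set on 1 array. Intensities of different probe sets depend on the probes, so levels are compared across arrays and not between genes. In bulk samples of this kind, fewer cells of a type and less RNA per cell cannot be told apart. The arrays were not equally alike. After 2 and before 6 correlated at 0.995 over all probe sets, with 4 probe sets more than 2-fold apart, whereas after 2 and after 3 correlated at 0.874, with 4867 more than 2-fold apart. Some markers of T, B and myeloid cells without a CD name had bright probe sets, such as LCK, JCHAIN and S100A8, with lowest log2 intensities of 10.35, 11.97 and 12.75. So did some of platelets and red cells, with PF4 at 12.42 or more and HBB at 11.72 or more. Others in these lists were dim, among them ITGAM, a neutrophil and monocyte integrin, between 2.42 and 3.05, and TNFAIP6, between 3.21 and 4.96. MSR1 lay between 4.04 and 5.21, and the platelet marker SELP fell to 5.90. The dimmest 25% of all probe sets held 5 of the CD genes, CD1B, CD28, CD38, CD4 and CD83, and no detection calls were used here, so signal and background cannot be told apart for them.

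None of the CD genes differed significantly between cold-exposed and unexposed blood. The mean was higher after cold for 19 of the 46 and lower for 27, and the median log2 difference was -0.08, against 0.05 over all 6337 genes, of which 56.3% had a higher mean. With limma, 0 of 46 passed an adjusted p of 0.05, where 0% of all probe sets did, and 0 of 46 had an unadjusted p under 0.05, where 0.494% of all probe sets did. The smallest unadjusted p was 0.0857, for CD96, with an adjusted p of 1.00 in limma. The values of the 3 arrays of one group lay apart from those of the other group in 0 of 46 CD genes and in 5.02% of all genes. A difference of at least 1.5-fold was seen in 3 of the 46, or 6.52%, close to the 6.96% of all genes. The 95% intervals of the differences reached between 0.56 and 1.17 to either side of the estimate, and each of the 46 intervals held 0.

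**Figure D1:**
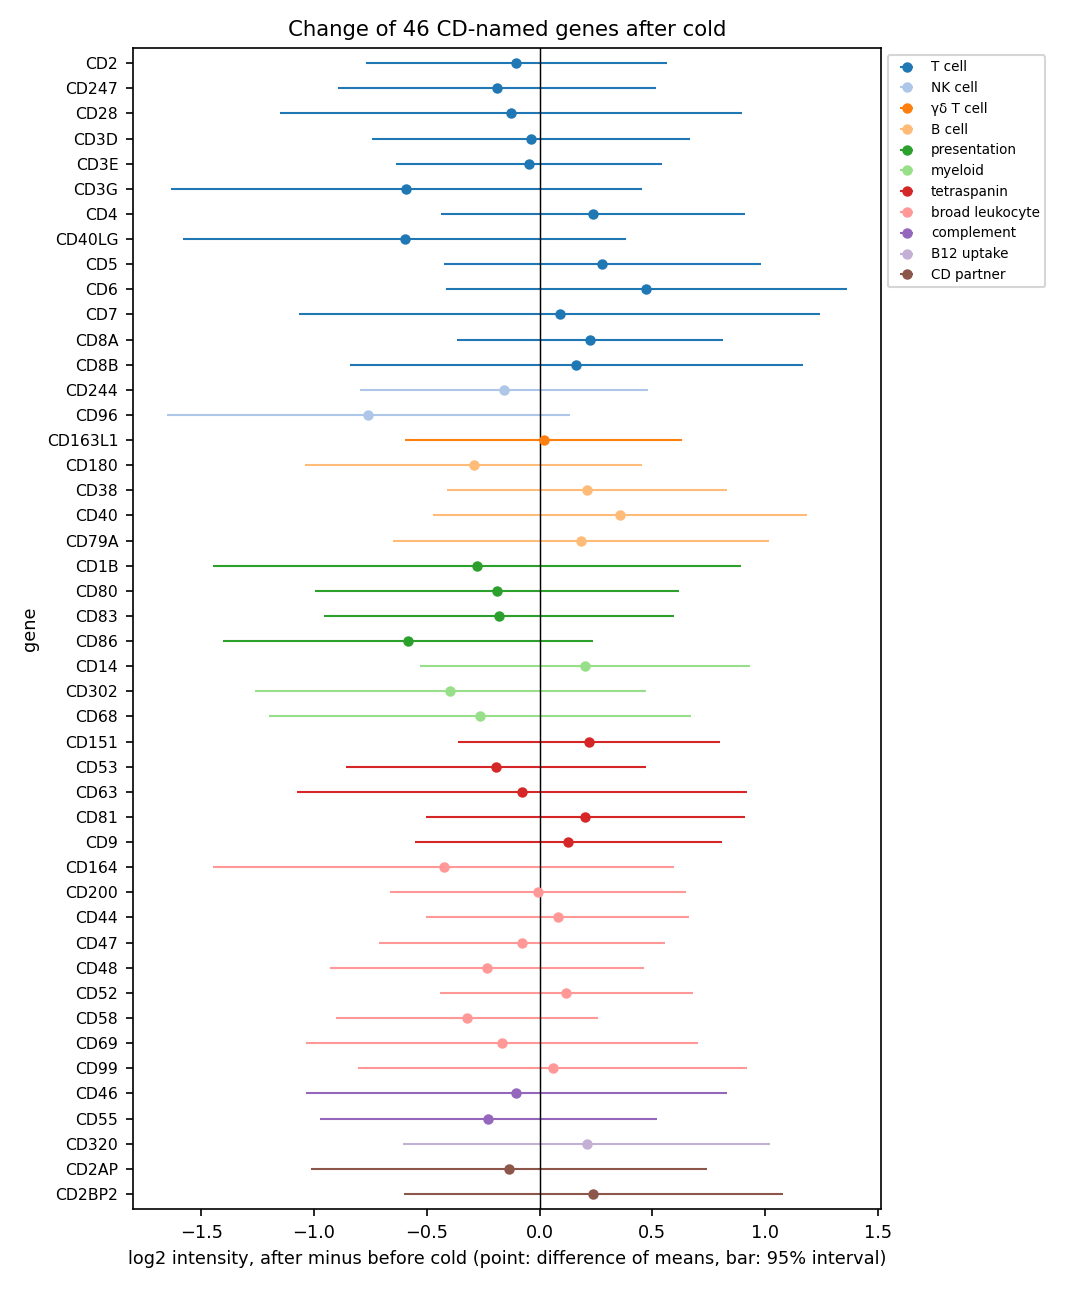
Difference of mean log2 intensity after minus before cold (horizontal axis) for the 46 CD-named genes, coloured by the lineage they mark; bars are 95% intervals of the limma model with 3 arrays per group. Each bar crosses 0, and the points run from -0.76 for CD96 to 0.47 for CD6.

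Among the CD3 chains, the signalling part of the T cell receptor, CD3G stood furthest from its own mean, on the after 3 array. CD3E was at 10.89, 10.86 and 10.91 after cold and at 11.26, 10.77 and 10.78 before. CD3D was at 12.04, 11.52 and 11.53 after cold and at 12.17, 11.36 and 11.67 before. The groups overlapped for both chains, with differences of -0.05 ± 0.26 (SE) for CD3E and -0.04 ± 0.31 for CD3D. CD3G was at 11.59, 11.38 and 9.86 after cold and at 11.75, 11.26 and 11.58 before. Its difference was -0.59 ± 0.46, and -0.05 without the after 3 array. On after 3, CD3G lay 1.38 below its own mean over the arrays (-1.38), CD3D at -0.19 and CD3E at 0.0016. CD3D and CD3G are adjacent coding genes in the RefSeq gene table of cattle, and CD3E is the next neighbour of CD3D. The zeta chain CD247, which carries most of the signalling motifs of the receptor, was at 11.93, 11.82 and 11.19 after cold and at 12.11, 11.50 and 11.89 before. It too was lowest on after 3, by 0.55 below its mean (-0.55), and its difference was -0.19 ± 0.31.

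The groups overlapped for each of the co-receptors of T cells. CD8A was at 10.26, 10.18 and 10.47 after cold and at 10.22, 9.80 and 10.22 before, a difference of 0.22 ± 0.26 (SE). Its partner CD8B, the neighbouring gene, was at 9.94, 8.67 and 9.96 after cold and at 9.90, 9.40 and 8.78 before. CD8B was thus low on after 2 and before 6 and high on after 1, after 3 and before 4, a split that crosses the groups, while CD8A was lowest on before 5. CD4, from a dim probe set, was at 5.37, 5.36 and 6.10 after cold and at 5.28, 5.54 and 5.31 before. Without the after 3 array its difference of 0.24 ± 0.29 became -0.01.

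CD5 and CD6, neighbouring genes for scavenger-receptor proteins that dampen T cell receptor signals, were both high on after 1, after 3 and before 4. CD5 was at 9.75, 9.15 and 9.75 after cold and at 9.68, 9.11 and 9.01 before. CD6 was at 7.16, 5.83 and 6.66 after cold and at 6.52, 5.85 and 5.86 before, and its difference of 0.47 ± 0.39 (SE) was the highest of all CD genes. Without after 1 it was 0.17, and without after 2 it was 0.83. CD7, an immunoglobulin-family protein of T and NK cells, was at 9.20, 7.59 and 8.39 after cold and at 9.17, 8.01 and 7.73 before. It was highest on after 1 and before 4 and lowest on after 2 and before 6, so each end of its range held an array of each group. CD2, an adhesion receptor of T and NK cells, was at 10.20, 10.53 and 10.20 after cold and at 10.78, 9.99 and 10.46 before.

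CD40LG and CD28 act in costimulation by T cells, and both were lowest on after 3. CD40LG, the ligand by which helper T cells drive B cells, was at 8.04, 8.14 and 6.58 after cold and at 8.38, 7.997 and 8.17 before. The group means were 7.59 ± 0.87 after and 8.18 ± 0.19 before cold (SD, n = 3 in each group). Without after 3 the difference of -0.60 ± 0.43 (SE) was -0.09. CD28, the receptor of CD80 and CD86, was at 5.63, 5.33 and 4.52 after cold and at 6.11, 4.64 and 5.11 before, on a dim probe set. The difference was -0.13 overall and 0.29 without before 4. Of the 13 T cell genes, 6 were higher on average after cold and 7 lower, with a median difference of -0.04, which ran from -0.13 to 0.19 on leaving out single arrays and was 0.19 without before 4. Measured from each gene's own mean, their median stood at 0.32, -0.05 and 0.0016 on the arrays after cold and at 0.42, -0.30 and -0.12 on those before, highest on after 1 and before 4. For comparison, the T cell genes without a CD name that had a probe set, LCK, ZAP70, LAT, TCF7 and LEF1, had 5 of 5 higher means after cold and a median of 0.17, with 0 past the limma threshold. Their median deviations were 0.01, 0.29 and -0.02 after cold and 0.23, -0.56 and 0.42 before, lowest on before 5.

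**Figure D2:**
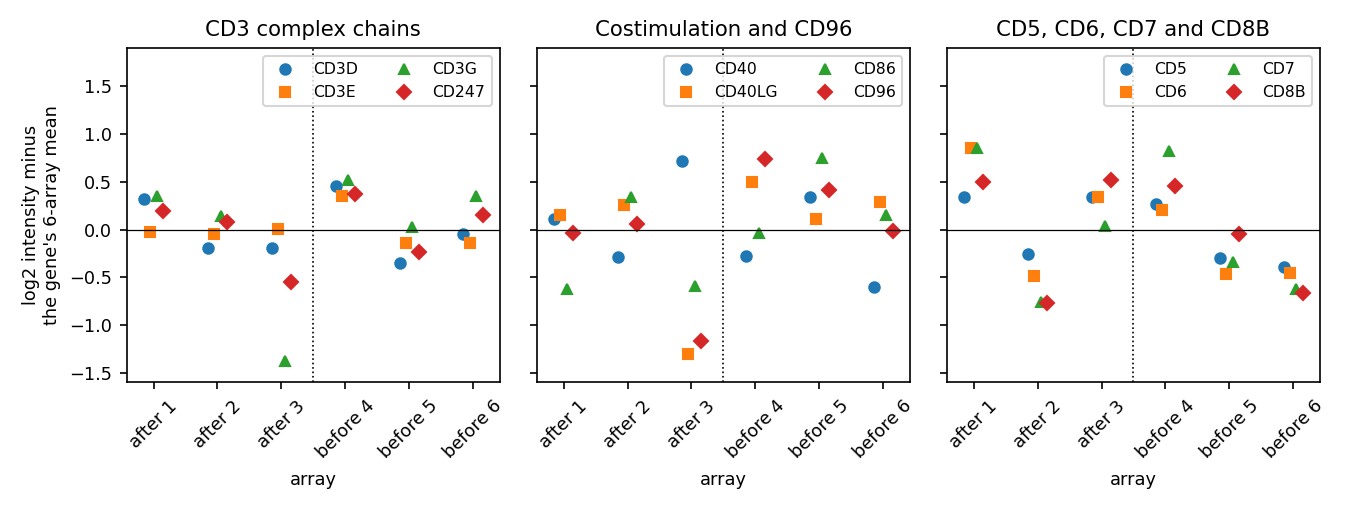
Log2 intensity minus the gene's mean over the 6 arrays (vertical axis) on each array (horizontal axis, after cold left of the dotted line) for the CD3 complex chains, for CD40, CD40LG, CD86 and CD96, and for CD5, CD6, CD7 and CD8B. CD3G, CD40LG and CD96 lie between -1.38 and -1.17 on the after 3 array, and CD3E lies at 0.0016 there.

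Genes of NK and gamma delta T cells were measured by 3 probe sets. CD96, a receptor of NK and T cells that binds nectin-like proteins, was at 8.04, 8.14 and 6.91 after cold and at 8.81, 8.49 and 8.07 before. The highest array after cold, after 2, lay just above the lowest before, before 6, so the groups overlapped by these 2 arrays alone. Its difference of -0.76 ± 0.39 (SE) was the lowest of all CD genes, 0.591-fold, with a 95% interval from -1.65 to 0.13. The difference was -0.98 without after 2 and -0.37 without after 3, the extremes among fits that left out 1 array, and in all 21 other settings the sign was kept. CD244, an NK receptor for CD48, was at 7.82, 7.65 and 7.19 after cold and at 7.95, 7.58 and 7.62 before. Markers of NK and cytotoxic cells without a CD name had 5 of 7 higher means after cold with a median of 0.19. PRF1, which forms pores in target cells, was at 0.23 ± 0.37, and GZMB, a granzyme, at -0.59 ± 0.27. GZMB was the 1 of the 7 whose groups did not overlap, where 5.02% of all genes had groups apart. CD163L1, the symbol under which the annotation lists a probe set for the WC1 antigen of bovine gamma delta T cells, was at 8.29, 8.35 and 8.35 after cold and at 8.44, 7.93 and 8.56 before. WC1 is a family of similar genes in cattle, so this probe set may read several of them.

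B cell genes had 3 of 4 higher means after cold and a median difference of 0.20, or -0.013 without after 3. CD79A, a signalling chain of the B cell receptor, was at 10.24, 9.88 and 10.95 after cold and at 10.23, 10.58 and 9.71 before. CD40 was at 9.82, 9.42 and 10.43 after cold and at 9.44, 10.05 and 9.11 before. Both genes were highest on after 3 and lowest on before 6, with differences of 0.18 ± 0.36 (SE) for CD79A and 0.36 ± 0.36 for CD40. Without after 3 the difference of CD40 was 0.088. CD180, a Toll-like protein of B cells, was at 8.59, 9.53 and 9.28 after cold and at 9.26, 9.77 and 9.24 before. CD38, an enzyme of plasma cells and activated lymphocytes, ranged from 5.54 to 6.11 over all arrays, on a dim probe set. B cell markers without a CD name had 5 of 6 higher means with a median of 0.20, and 0 passed the limma threshold. Groups did not overlap in 2 of the 6, where 5.02% of all genes had groups apart. These were POU2AF1 at 0.46 ± 0.28 and CXCR5 at 0.41 ± 0.25, both higher after cold. MS4A1, which encodes the CD20 antigen, ran the other way at -0.19 ± 0.30.

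By the probe sets used, all 4 genes of antigen presentation and costimulation had lower means after cold. Their median difference was -0.23, or 0.15 without after 3, and none passed the test. Of the 4, CD1B and CD83 were read by dim probe sets, where signal and background cannot be told apart. CD86, a ligand of CD28 on monocytes, dendritic cells and B cells, was at 6.97, 7.93 and 7.00 after cold and at 7.56, 8.34 and 7.75 before. Its after 1 and after 3 values lay below each value before cold, while after 2 lay among them. The difference was -0.58 ± 0.36 (SE; limma, unadjusted p = 0.141, adjusted p = 1.00), with -0.90 without after 2 and -0.35 without before 5. CD80, the other ligand of CD28, was at 6.60, 6.55 and 5.55 after cold and at 6.69, 6.11 and 6.47 before. CD83, a marker of mature dendritic cells, was at 5.68, 5.58 and 4.62 after cold and at 5.68, 5.30 and 5.45 before. CD1B, which presents lipids to T cells, was at 5.66, 5.74 and 4.40 after cold and at 6.15, 4.57 and 5.91 before. CD80, CD83 and CD1B were each lowest on after 3, and without that array their differences were 0.15, 0.16 and 0.15. The second probe set of CD83 had a higher mean after cold. Measured from its own mean, it stood at 0.31, -0.09 and -0.01 after cold and at 0.14, -0.18 and -0.18 before. Among dendritic cell markers without a CD name, the transcription factors IRF8 and TCF4 differed by 0.26 ± 0.27 and -0.06 ± 0.40.

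Of the 3 myeloid genes, 1 had a higher mean after cold, and the median difference was -0.26, with -0.033 without after 2 and -0.011 without before 5. CD14, the lipopolysaccharide co-receptor of monocytes, was at 8.71, 8.94 and 9.55 after cold and at 8.80, 9.23 and 8.57 before, with a difference of 0.20 ± 0.32 (SE). CD68, a glycoprotein of macrophage lysosomes, was at 7.57, 7.29 and 8.40 after cold and at 8.18, 8.52 and 7.35 before. CD302, a lectin receptor of monocytes and dendritic cells, was at 6.69, 7.69 and 6.73 after cold and at 6.88, 7.64 and 7.76 before. CD14 and CD68 were both high on after 3 and before 5, while CD302 was low on after 3. Monocyte markers without a CD name had 3 of 6 higher means and a median of -0.08, and 0 passed the limma threshold. Groups did not overlap in 1 of the 6, MSR1, at -0.66 ± 0.28 on a dim probe set, where 5.02% of all genes had groups apart. Neutrophil markers had 4 of 5 higher and a median of 0.19, eosinophil and basophil markers 0 of 2 and -0.22, platelet markers 1 of 3 and -0.10, and red cell markers 2 of 2 and 0.11. Their median deviations ran highest on before 5 for neutrophil (0.29) and platelet (0.50) markers and on after 1 for eosinophil and basophil (0.54) and red cell (0.37) markers, and the part of these cells in the values of CD genes was not tested.

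Of the 5 tetraspanins, 3 had higher means after cold, with a median difference of 0.13, or 0.00022 without before 6 and 0.31 without after 2. CD63, a protein of lysosomes and secretory granules, was at 10.24, 9.26 and 10.61 after cold and at 10.15, 10.69 and 9.50 before. CD81, part of the B cell co-receptor, was at 11.46, 10.95 and 11.76 after cold and at 11.33, 11.39 and 10.85 before. Both were lowest on after 2 and before 6, where CD53, a tetraspanin of most leukocytes, was highest. CD53 was at 11.96, 12.45 and 11.80 after cold and at 12.37, 11.95 and 12.47 before. CD9, abundant on platelets, was at 9.77, 9.28 and 9.67 after cold and at 9.89, 9.26 and 9.19 before. CD151 ranged from 7.89 to 8.41 over all arrays.

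Of the 9 genes grouped here as broad leukocyte genes, not assigned to a single lineage, 3 had higher means after cold. Their median difference was -0.08, or 0.037 without after 3. CD52, a short glycoprotein of lymphocytes, varied least of the 46 CD genes, between 12.43 and 12.77, followed by CD44, the hyaluronan receptor, between 10.05 and 10.53. CD47, the signal that restrains phagocytes, ranged from 9.92 to 10.44, and its difference was -0.08 ± 0.28 (SE). The early activation marker CD69 was at 10.08, 9.84 and 8.77 after cold and at 9.85, 9.90 and 9.43 before. CD48, a ligand of CD244, was at 13.04, 12.83 and 12.12 after cold and at 12.92, 12.97 and 12.79 before. Both were lowest on after 3, and without it their differences of -0.17 and -0.23 became 0.23 and 0.04. CD58, a ligand of CD2, was at 6.21, 6.32 and 6.05 after cold and at 6.54, 6.72 and 6.28 before, a difference of -0.32 ± 0.25. As in CD96, a single pair of arrays, after 2 and before 6, made the groups overlap. CD164, a sialomucin of blood progenitors and leukocytes, was at 6.75, 7.72 and 6.06 after cold and at 7.04, 6.98 and 7.79 before. The other members were CD99 and CD200, with differences of 0.06 ± 0.38 and -0.0085 ± 0.29.

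The complement regulators CD46 and CD55, which protect blood cells from complement, were both highest on after 2 and before 6. CD46, also known as a receptor of bovine viral diarrhoea virus, was at 9.99, 11.12 and 10.10 after cold and at 10.08, 10.31 and 11.13 before. CD55 was at 8.61, 9.65 and 9.22 after cold and at 9.13, 9.45 and 9.59 before. Of the remaining genes, the adaptor CD2AP was high on after 2 and before 6, at 8.57 and 8.53, and between 7.32 and 7.84 elsewhere. CD2BP2, a protein of the splicing machinery, was low on these arrays, at 7.75 and 7.71, against 8.36 to 8.78 elsewhere, and CD320 likewise, at 7.20 and 7.17.

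**Figure D3:**
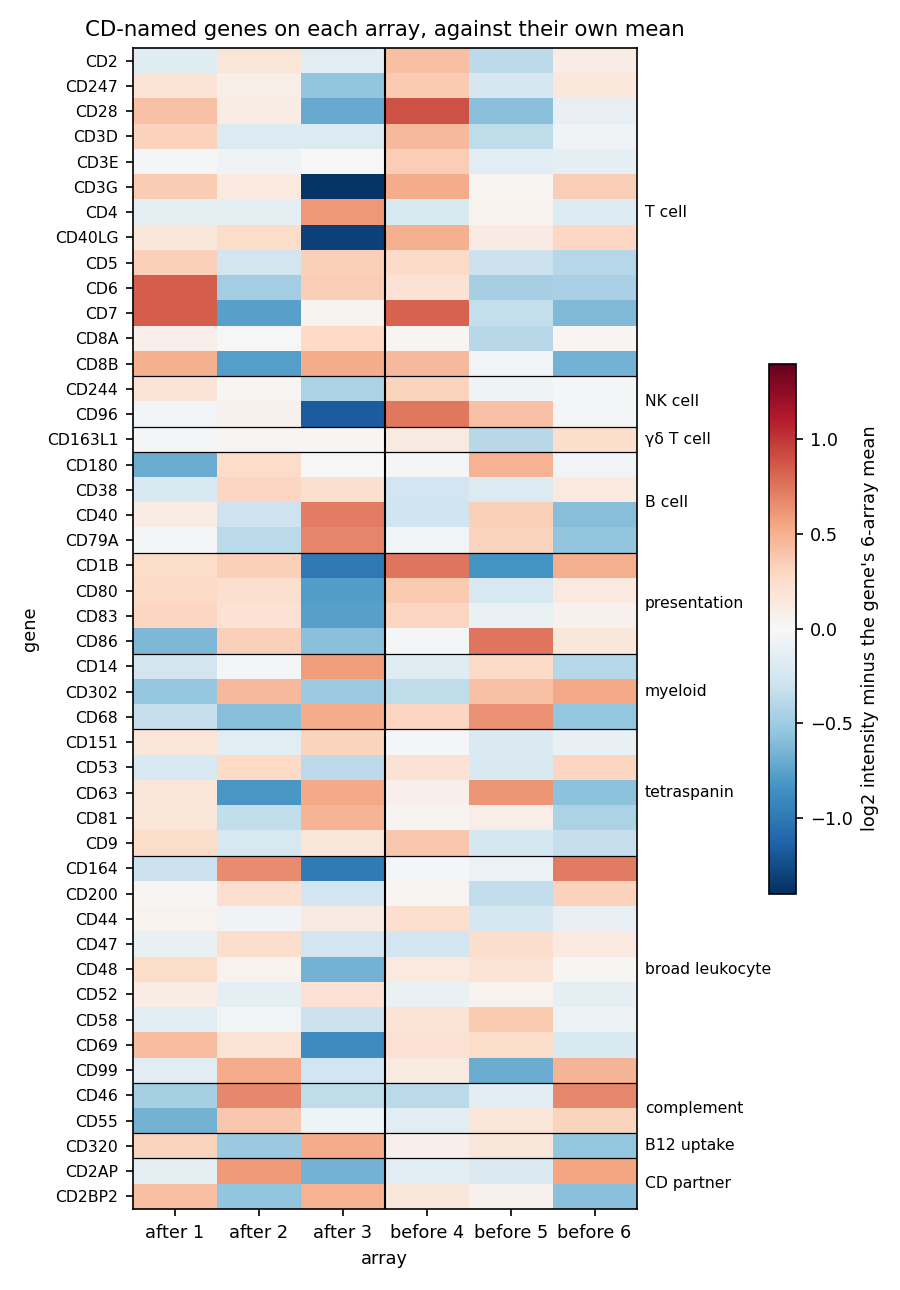
Log2 intensity minus the gene's mean over the 6 arrays (colour) for the 46 CD-named genes (rows, by lineage) on each array (columns, after cold left of the vertical line). The columns of after 2 and before 6 look alike across genes, and CD3G on after 3, at -1.38, is the darkest blue cell.

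Across all CD genes, the 2 pairs of arrays that were most alike each held an array after and an array before cold. The median absolute difference over the 46 genes was 0.08 between after 2 and before 6, and 0.19 between after 1 and before 4, with 0 genes more than 2-fold apart in either pair. Within the group after cold it was 0.34, 0.47 and 0.79, and 16 of the 46 genes were more than 2-fold apart between after 2 and after 3. Within the group before cold it was 0.43, 0.38 and 0.43. After 3 and before 5 differed by 0.42, within the 0.38 to 0.43 of the pairs before cold. The after 3 array was the lowest of the 6 for 15 CD genes and the highest for 11, against 2059 and 2307 of the 6337 genes, and before 4 was the highest for 13 CD genes, against 525 of all genes. These are descriptions of the arrays, and the labels do not say which of them share an animal.

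**Figure D4:**
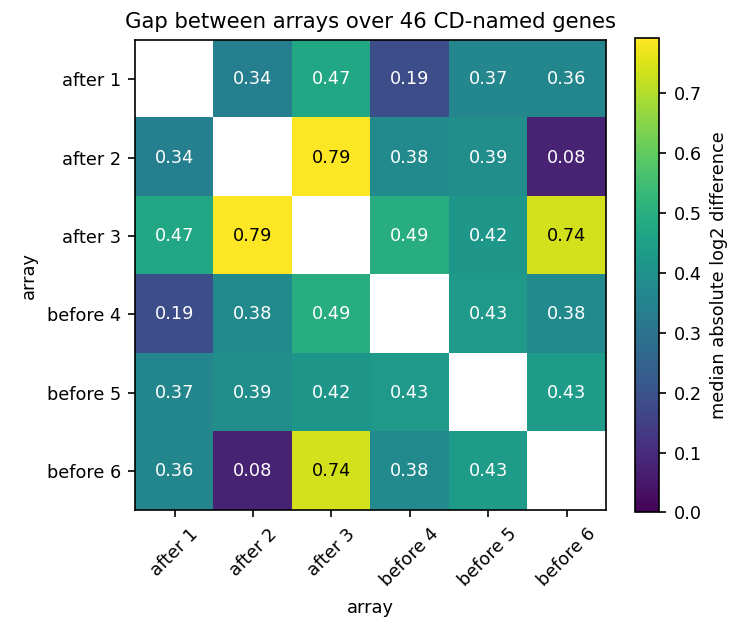
Median absolute log2 difference over the 46 CD-named genes (colour and number) for each pair of the 6 arrays. The smallest value, 0.08, is between after 2 and before 6, and the largest, 0.79, between after 2 and after 3.

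The number of CD genes with groups apart differed with the arrays included. Groups of fewer arrays come apart more readily, so each such count is set beside the share of all genes in the same setting. Without after 2, the groups did not overlap in 14 of 46 CD genes, or 30.4%, while they did not in 42.8% of all genes. Higher after cold among the 14 were CD151, CD2BP2, CD320, CD5, CD52, CD6, CD81, CD8A and CD8B, and lower were CD164, CD302, CD58, CD86 and CD96. At an unadjusted p under 0.05 in limma there were then 4, CD164, CD6, CD86 and CD96, or 8.70%, where 14% of all probe sets passed, and the smallest adjusted p was 0.283. Without after 2 and before 6 together, the groups did not overlap in 14 of 46 as well, against 47.9% of all genes, and CD86 and CD96 had an unadjusted p under 0.05, or 4.35%, where 9.67% of all probe sets did. Leaving out any other single array gave groups apart in 1 of 46 without after 1 (10.5% of all genes), 0 without after 3 (6.63%), 4 without before 4 (10.3%), 4 without before 5 (9.18%) and 2 without before 6 (10.9%). With the samples matched as 1-4, 2-6 and 3-5 in a block, 2 of 46 had an unadjusted p under 0.05 in limma, CD40 and CD96, where 9.15% of all probe sets did. This matching joins the 2 pairs of arrays most alike, and in each other matching 0 of 46 had such a p. With array weights 3 had such a p, CD3G, CD40LG and CD96, or 6.52%, where 5.19% of all probe sets did. The shares of CD genes lay below those of all genes or probe sets in each of these settings other than array weights. Without before 5 the gap was small, 8.70% against 9.18%, and 1 of 46 genes is 2.17%. The settings reuse the same arrays, and a difference between CD genes and other genes was not tested.

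The probe sets of a gene did not always follow the same arrays. Of the 12 genes with several probe sets, 5 had differences after cold in both directions: CD3D, CD40, CD46, CD83 and CD99. For CD3D the probe set used differed by -0.04 ± 0.31 (SE) and the other by 0.10 ± 0.37. For CD46 the differences were -0.10 ± 0.41 and 0.22 ± 0.35. Each of these was smaller than its SE, so the opposite signs lie around 0. Both probe sets of CD3D were highest on before 4 and lowest on before 5, and both of CD46 were highest on after 2 and before 6. The CD40 probe set used above read 9.42 on the after 2 array and 9.11 on before 6. The other was highest on these arrays, at 8.51 and 8.38, with 7.40 to 7.73 elsewhere. Their differences were 0.36 ± 0.36 and -0.09 ± 0.38 (SE). For CD99, an adhesion molecule of leukocytes, the probe set used was highest on after 2 and before 6, at 10.74 and 10.70, where the other was lowest, at 9.26 and 9.23. CD14 showed no such split, with its second probe set at 6.11, 5.87 and 6.84 after cold and at 6.09, 6.83 and 5.55 before, highest on after 3 and before 5 like the first. The 3 probe sets of CD58 all had lower means after cold, by -0.32, -0.46 and -0.17.

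**Figure D5:**
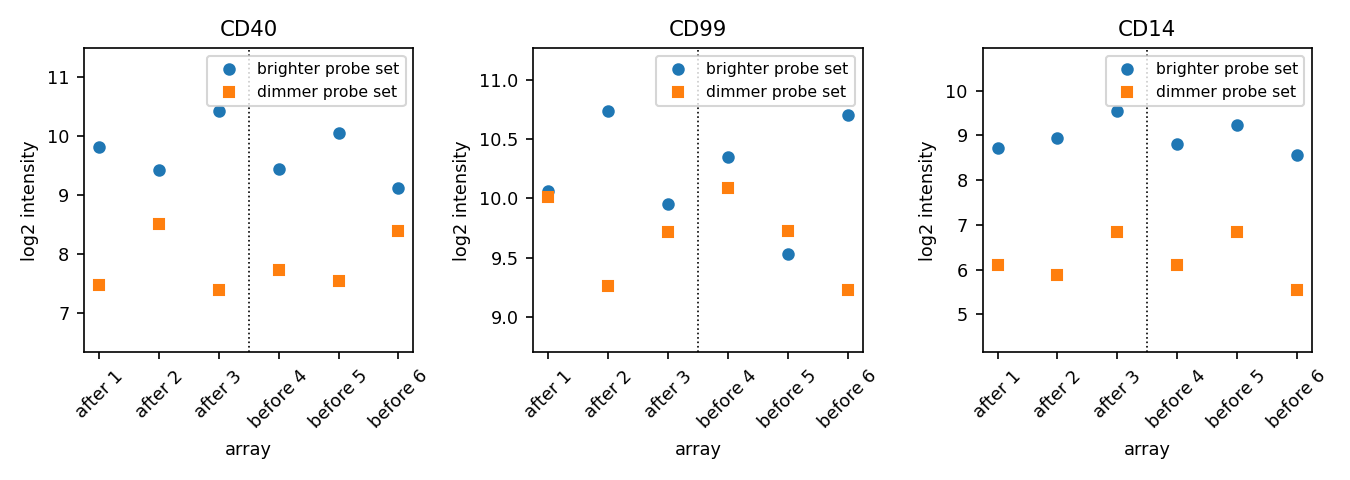
Log2 intensity (vertical axis) of both probe sets of CD40, CD99 and CD14 on each array (horizontal axis, after cold left of the dotted line). The probe sets of CD40 and CD99 move in opposite directions on after 2 and before 6, and those of CD14 are both highest on after 3 and before 5.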

How the data were processed

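The deposited table held 1 probe set intensity per array on a linear scale, for 6 arrays, and the authors used GCOS and RMA, per the submitters' processing notes, with no version given. The sources used here give neither a probe set filter nor a genome build. Intensities were log2-transformed with no further normalization, pseudocount or filter. Array medians ran from 7.25 to 7.49, and the number of arrays limits the precision.

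Gene names came from the platform annotation, in which 8125 probe sets carried 1 symbol, 56 several and 4582 none. All 46 CD genes were found by gene identifier in RefSeq's table for ARS-UCD2.0, used for names and neighbours only.

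After cold was compared with before in limma 3.58.1 (R 4.3.3), by lmFit and eBayes over all 12763 probe sets without a block, two-sided, with Benjamini-Hochberg adjustment and a threshold of 0.05. Errors are SE of this model or SD over 3 arrays. The test treats the arrays as separate although pairs share an animal. An exact permutation test of 3 against 3 cannot give a p below 0.1. The code was tested on simulated data with 3 arrays per group and changes added to some probe sets. At an adjusted p of 0.05 in limma, 7.46% of changes of 1 log2 unit were recovered, 49.3% of 2 and 84.8% of 3. Most simulated 2-fold changes were thus missed.

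The genes and lineage lists were chosen with earlier results of these data known. By rule, the text names defining lineage genes, the 10 smallest p, the 6 widest ranges and the brightest and dimmest member, 30 genes, and gives the others by class. Where it names other members, they were named by class. CD22, CD79B, CD163, CD36 and CD74 of the rule were not analysed here, since no probe set carried their symbol alone. Alternatives were leaving out arrays, 3 normalizations, filters on the dimmest 25% and 50%, an intensity trend, array weights, averaging a gene's probe sets and a block for each of the 6 matchings of samples.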

Additional observations from a re-analysis of the deposited data

How the results depend on the processing

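With limma, 0 CD genes passed an adjusted p of 0.05 in each of the 21 other settings, and the smallest adjusted p in any of them was 0.283. The direction was kept in all settings that measured the gene by 14 of the 46, 6 higher and 8 lower after cold. Without after 3, 17 of the 46 turned. The median difference of all CD genes was -0.16 to 0.055 on leaving out each array, and positive without after 3 (0.035) or before 4 (0.055). Array weights turned the sign of the medians of CD163L1 (-0.048), myeloid (0.092), tetraspanin (-0.078) and complement genes (0.26) and of CD2AP and CD2BP2 (-0.045). They gave -0.36 for T cell, -0.94 for NK, -0.66 for presentation and 0.40 for B cell genes, with -0.11 for broad leukocyte genes and 0.079 for CD320. These weights were 0.0019 for after 1 and 30.7 for before 4, so this fit rests on few arrays. No paired analysis was possible because the groups share no replicate number, so each replicate block for the 6 matchings is a possible pairing only. The counts at an unadjusted p under 0.05 were 2 (1-4, 2-6, 3-5) and 0 in the other 5 matchings, and 3 with array weights, CD3G, CD40LG and CD96, where 5.19% of all probe sets had one. Groups did not overlap in 0 (without after 3) to 14 (without after 2) of the CD genes.

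Of 619 values of named genes under alternatives, 41 had the opposite sign, 0 of them past the threshold. On leaving out each array, the differences ran from -0.13 to 0.59 for CD8B, -0.31 to 0.52 for CD7, -0.22 to 0.18 for CD3D, -0.38 to 0.31 for CD63, -0.35 to 0.040 for CD247, -0.010 to 0.36 for CD4, -0.45 to 0.29 for CD28, -0.11 to 0.42 for CD79A, -0.041 to 0.38 for CD14, -0.37 to 0.15 for CD80, -0.23 to 0.034 for CD47, -0.43 to 0.23 for CD69, -0.76 to 0.15 for CD1B, -0.42 to 0.037 for CD48, -0.13 to 0.12 for CD3E, -0.31 to 0.084 for CD2 and -0.020 to 0.22 for CD44. Array weights gave -0.32 for CD8B, -0.070 for CD5, -0.074 for CD6, -0.11 for CD44, 0.13 for CD47, -0.26 for CD9, 0.092 for CD302 and -0.90 for CD7. CD3D was at 0.016 without after 2 and before 6, 0.013 with quantile normalization and 0.034 with the mean of its probe sets, CD63 at 0.0035 without after 2 and before 6, and CD28 at 0.0012 with quantile normalization. What caused these shifts was not tested.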
